A study of Mus musculus with 2 samples.

Results

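Plasma cell and IgA transport genes were a set of 10 genes picked by symbol: Pigr, Mzb1, Sdc1, Tnfrsf17, Prdm1, Irf4, Pou2af1, Tnfsf13, Tnfsf13b and Tnfrsf13b. A transcript cluster of the main category, that is, a group of probes for 1 transcript, carried the symbol of 9 of them, out of 30921 genes measured, and none carried the symbol Tnfsf13. Their levels were compared in colon RNA of untreated mice on the FVB background, aged 16 weeks, with 1 Mouse Gene 2.0 ST array for WT mice and 1 for mice lacking complement component 3 (C3 KO). Both genotypes came from crosses of C3 heterozygotes, and the study had measured stool output and charcoal meal transit before the colon was taken. The records of both samples give distal colon as the tissue, but their extraction protocol and the study's methods speak of mid colon. Whether an array held RNA of 1 mouse or of several is not given in the sources used here.

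Plasma cells are the antibody factories of the gut wall. In the colon most of them make IgA, which they release as dimers held together by the J chain, and the polymeric immunoglobulin receptor on the base of epithelial cells carries these dimers through the cell and sheds them into the lumen with a piece of itself, the secretory component. A B cell becomes a plasma cell under the transcription factors Irf4 and Prdm1 (Blimp-1), and its survival depends on the cytokines BAFF (Tnfsf13b) and APRIL (Tnfsf13), which bind TACI (Tnfrsf13b) and BCMA (Tnfrsf17).

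Values were log2 levels after robust multi-array average (RMA) normalization, where a step of 1 stands for 2-fold, and every difference below is C3 KO minus WT. With 1 array per group there was no error between mice, no test was made, and a call, higher or lower, needed at least 1.5-fold (0.58 on the log2 scale). C3 itself fell from 8.15 to 6.80. The arrays also differed in ways that run along with the genotype: Xist was 10.35 in WT and 3.81 in C3 KO and all 4 Y-linked genes were higher in C3 KO, 18 of 19 pancreatic acinar markers were lower in C3 KO with a log2 summed level of 16.27 against 10.35 (2 of them were below the C3 KO background median), and 9 of 12 hepatocyte markers were higher, 10.08 against 10.98. Genotype, sex and these other tissue signals cannot be told apart with 2 arrays. In RNA of whole colon, fewer cells of a type and less RNA per cell cannot be told apart either.

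The measured members, except Pou2af1, had nearly the same levels in both arrays. None of the 9 measured members reached 1.5-fold, while 7.24% of all genes did, 3.47% higher and 3.77% lower in C3 KO. At a mean level of at least 5, which all 9 members had, the share of genes called was 4.7%, so a count of 0 among 9 genes lies near the background and is no result about the members. The size of the differences is the more detailed description. The median absolute log2 difference was 0.05 over the members, 0.16 over the 18954 genes with a mean level of at least 5 and 0.18 over all genes. An absolute difference under 0.15 was found in 8 of 9 members and in 47.5% of genes with a level of at least 5. Pou2af1, which was 1.40-fold higher in C3 KO, was the member outside that limit, and the other 8 lay between -0.13 and 0.08. The limit of 0.15 lies just beyond the largest of these 8 in size, so the count of 8 depends on it. Differences were above 0 in 3 members (Pigr, Prdm1 and Pou2af1) and below 0 in 6, with a median of -0.02.

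**Figure D1:**
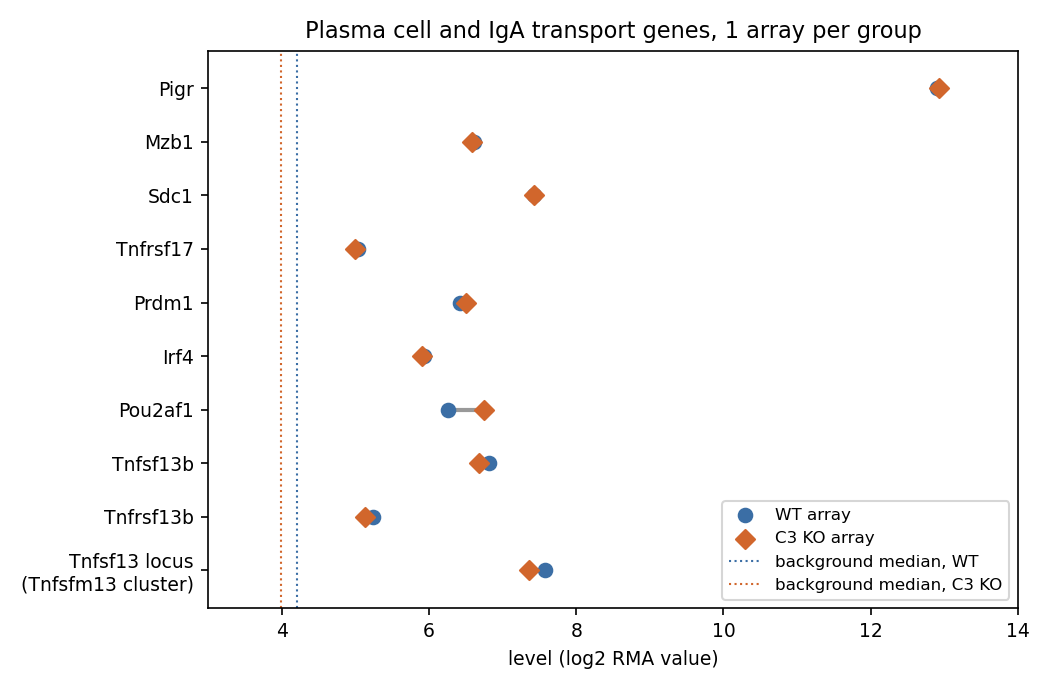
Level of each member (log2 RMA value, horizontal axis) in the WT array (circles) and the C3 KO array (diamonds), 1 array per group, with the medians of 23 background probe sets as dotted lines. The symbols of a gene nearly coincide except for Pou2af1 (6.26 and 6.75), and the levels of different genes come from different probes and are not to be ranked.

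Pigr encodes the polymeric immunoglobulin receptor, which moves IgA and IgM from the tissue to the lumen. Its cluster of 24 probes spanned the whole gene on the forward strand of chromosome 1 (chr1:130826684-130852249, GRCm38). WT gave a level of 12.90 and C3 KO one of 12.93, which differ by 0.03 on the log2 scale, or by 2.15% on the linear scale. Of all genes, 90.0% differed by at least as much. All 23 background probe sets, which match no mouse transcript, were below Pigr in both arrays. The promoter of Pigr is shown because this gene is the transport step of the set. The 300 bases run from 250 bases before to 50 bases after the start site (chr1:130826434-130826733, forward strand, RefSeq, GRCm38.p6). The capitals mark CAGGTG, the only spelling of an E-box that was searched for, which begins at position -20 from the start. The window also holds the letters CACGTG further upstream, which were not searched for and are not marked.
Pigr: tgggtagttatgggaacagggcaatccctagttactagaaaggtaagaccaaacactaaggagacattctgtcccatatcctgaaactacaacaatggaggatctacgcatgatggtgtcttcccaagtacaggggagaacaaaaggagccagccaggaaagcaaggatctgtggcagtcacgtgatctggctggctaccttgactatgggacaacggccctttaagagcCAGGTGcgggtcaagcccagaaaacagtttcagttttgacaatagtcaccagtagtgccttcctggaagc

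Among the ligands, Tnfsf13b encodes BAFF, a survival factor of B cells and early plasma cells. It was 6.81 in WT and 6.68 in C3 KO (29 probes, chr8:10006633-10036000), a log2 difference of -0.13 or a 1.10-fold lower level, the largest difference below 0 among the members. RefSeq gives this gene more than 1 start, and 62.6% of all genes differed by at least as much as it did. Tnfsf13, the gene of APRIL, which keeps long-lived plasma cells alive, had no cluster of its own symbol. Its locus (chr11:69682577-69685554, reverse strand) lies within a cluster of 28 probes named Tnfsfm13 (chr11:69682577-69696098), which also covers Tnfsf12, the gene of the cytokine TWEAK. This cluster was 7.57 in WT and 7.36 in C3 KO, a log2 difference of -0.21 or a 1.16-fold lower level. Its probes cannot assign that signal to APRIL, to TWEAK or to the transcript that joins them, so it was not counted among the members. A cluster on the opposite strand of the same locus, Tnfsf13os, was 5.30 in WT and 5.50 in C3 KO.

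The receptors of these ligands were close to the background. Tnfrsf13b encodes TACI, which binds both BAFF and APRIL, and was 5.24 in WT and 5.13 in C3 KO (20 probes, chr11:61126755-61149372), a log2 difference of -0.12. Tnfrsf17 encodes BCMA, a marker of plasma cells that binds APRIL best, and was 5.04 in WT and 4.99 in C3 KO (21 probes, chr16:11313809-11320074), a log2 difference of -0.05. Both genes were above the background medians of 4.20 (WT) and 3.99 (C3 KO), but only 13 of the 23 background probe sets were below each of them in either array. The background sets ranged from 1.45 to 8.56 in WT and from 1.48 to 8.11 in C3 KO, so both receptors lay in the middle of that range, and a difference in either may not be detectable. The same limit holds to a lesser degree for the other members except Pigr, which were all below the highest background set, with 14 to 18 of the 23 sets below them. Tnfrsf13c, the BAFF receptor of B cells and no member, was 6.88 and 6.91.

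Of the 3 transcription regulators, 2 differed little and Pou2af1 more. Irf4, which starts the plasma cell program, was 5.93 in WT and 5.91 in C3 KO (28 probes, chr13:30749226-30766927), and Prdm1, the repressor that shuts down B cell genes, was 6.42 and 6.50 (19 probes, chr10:44437175-44528501). These are log2 differences of -0.02 and 0.08. Prdm1 is also expressed by epithelial and T cells, so its level in whole colon is not that of plasma cells alone. Pou2af1 (OBF-1), a coactivator that joins octamer-binding factors on immunoglobulin promoters, was 6.26 in WT and 6.75 in C3 KO (20 probes, chr9:51213690-51240079). Its log2 difference of 0.49 was the largest of the set, short of the 1.5-fold call, and 11.9% of all genes differed by at least as much in either direction. Of the 14928 genes with a mean level from 5 to 8, 4.51% were at least as much higher in C3 KO. Pou2af1 is expressed by B cells as well as plasma cells, and 13 of 15 B cell markers were above 0, and the log2 of their summed level went from 9.10 (WT) to 9.56 (C3 KO). Their part in the Pou2af1 value was not tested. Its promoter is shown as that of the member with the largest difference (chr9:51213440-51213739, forward strand, RefSeq, GRCm38.p6), with capitals at GACGTG, the core bound by the plasma cell factor XBP1, which begins at position -60 from the start.
Pou2af1: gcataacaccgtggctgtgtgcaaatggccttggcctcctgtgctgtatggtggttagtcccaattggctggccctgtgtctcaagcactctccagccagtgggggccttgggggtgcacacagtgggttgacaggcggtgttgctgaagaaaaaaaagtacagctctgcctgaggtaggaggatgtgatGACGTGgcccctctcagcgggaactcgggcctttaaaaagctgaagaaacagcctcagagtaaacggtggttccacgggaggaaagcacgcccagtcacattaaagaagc

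**Figure D2:**
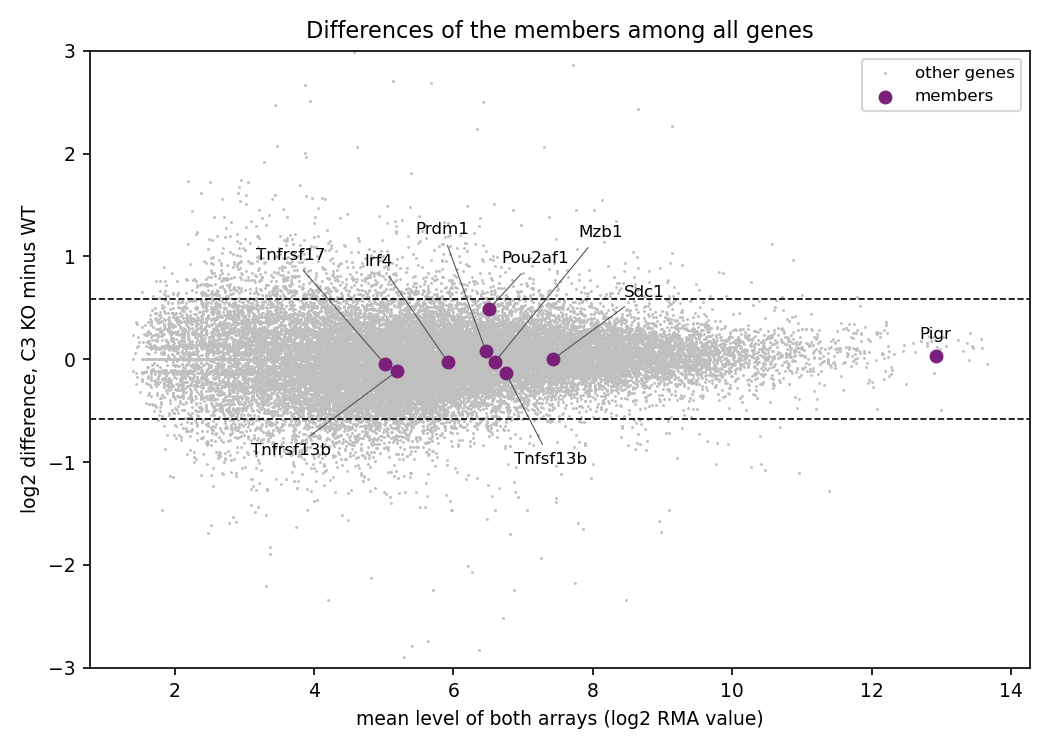
Log2 difference, C3 KO minus WT (vertical axis), against the mean level of both arrays (log2 RMA value, horizontal axis) for all genes (grey) and the 9 members (purple), with dashed lines at 1.5-fold. All members lie between the lines, Pou2af1 is nearest to the upper line, and 36 genes with an absolute difference over 3 lie outside the plotted range.

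The members Sdc1 and Mzb1, a surface and a secretory marker of the plasma cell, differed little. Sdc1 encodes syndecan-1 (CD138), a heparan sulfate proteoglycan that binds APRIL on plasma cells and is also made by gut epithelium. It was 7.43 in WT and 7.42 in C3 KO (27 probes, chr12:8771323-8793715), and 96.9% of all genes differed by at least as much. Mzb1, an endoplasmic reticulum protein that helps assemble and secrete IgM and IgA, was 6.61 in WT and 6.58 in C3 KO (26 probes), a log2 difference of -0.03. Of the background probe sets, 15 in WT and 16 in C3 KO were below Mzb1, and 17 and 18 were below Sdc1.

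The 9 members lie on 9 different chromosomes. All 9 were measured by 1 cluster each, of 19 to 29 probes annotated as matching 1 locus, and each cluster overlapped its gene in RefSeq. In the annotation of the array, 6 members are placed in membranes, and 3 (Irf4, Pou2af1 and Prdm1) in the nucleus, though Irf4 is in both groups. The nearest cluster on each side of each member, 18 in all, gave 0 calls, near the share of 7.24% of all genes. Their median log2 difference was 0.03. Beside Pigr lie LOC102640771, with 5.75 in WT and 5.80 in C3 KO, and Fcmr, the receptor of IgM, with 5.47 in WT and 5.84 in C3 KO, a log2 difference of 0.37. Next to Pou2af1, Btg4 was 4.01 and 4.42, near the background medians, and Gm684 on the other side was 5.89 and 5.79.

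The antibody genes themselves, the main product of plasma cells, were read by position, because the array names several of them by variable segments. Of 12 constant region genes, 10 had a cluster on the strand of the gene that began or ended in the gene or close to it. The clusters at Iglc2 and Iglc3 reach past both ends of the gene. Of the 10 clusters, 3 were called higher and 1 lower, beside 3.47% and 3.77% of all genes. The median difference of the 10 was 0.21 on the log2 scale. The cluster at Igha, the constant gene of IgA, was 10.89 in WT and 10.88 in C3 KO. This cluster, named Igh-VJ558 in the array's annotation, spans 638275 bases from Igha up to the variable segments, and how many of its 21 probes lie in Igha itself was not examined. Igkc, the constant gene of the kappa light chain, was 12.66 and 12.92, and Jchain, which joins the IgA dimer that Pigr carries, was 10.51 and 10.81, log2 differences of 0.26 and 0.30. Thus the clusters that cover IgA, its J chain and its transport receptor were all below the 1.5-fold limit.

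Other antibody classes differed more. Ighm, the constant gene of IgM, was 7.12 in WT and 8.29 in C3 KO, 2.25-fold higher. Of the 15 B cell markers 13 were also above 0, and the part of B cells in the Ighm value was not tested. Among the IgG genes, Ighg2b was 5.42 and 6.41, 1.99-fold higher, and Ighg1 was 7.50 and 8.09, a log2 difference of 0.59 that is just past the limit. Ighg3 was 5.58 and 6.02, Ighg2c was 6.44 and 6.58, and Ighe, the gene of IgE, was 4.26 and 4.12, at the background. On the lambda light chain, Iglc2 was 6.57 and 6.74, whereas Iglc3 was 7.28 and 6.03, 2.38-fold lower from 8 probes. By symbol alone, 7 of 14 genes of the constant region and J chain list were measured, with Ighm called higher and Iglc3 lower. The other 4 clusters named Ighm lie outside the constant gene and had log2 differences from -0.74 to 1.92. The cluster at Ighg2b carries the symbol Ighg, as does a second one in the variable region that was 6.87 and 4.91, so that Ighg by symbol, the mean of both, had a log2 difference of -0.48.

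**Figure D3:**
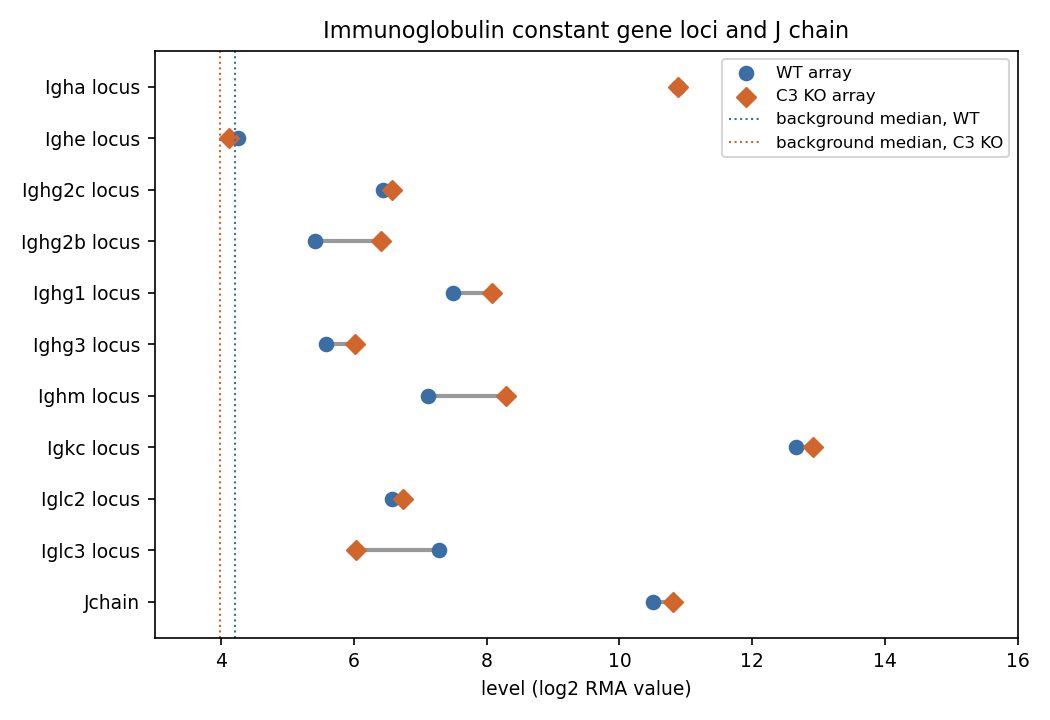
Level (log2 RMA value, horizontal axis) of the cluster at each immunoglobulin constant gene and of Jchain in the WT array (circles) and the C3 KO array (diamonds), 1 array per group, with background medians as dotted lines. The symbols at Igha coincide (10.89 and 10.88), those at Ighm, Ighg2b and Ighg1 are apart with C3 KO higher, and those at Iglc3 are apart with C3 KO lower.

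Of 17 other plasma cell genes, 0 were called higher and 4 lower, beside 3.47% and 3.77% of all genes. Their median difference was -0.15 on the log2 scale. Derl3, which helps remove misfolded proteins, was 7.10 in WT and 5.88 in C3 KO, 2.34-fold lower, and Fkbp11, a folding enzyme, was 6.42 and 5.39, 2.04-fold lower. Sdf2l1 (8.19 and 7.25) and Creld2 (9.04 and 8.22) were chosen after their values were seen, as were Txndc5, Sec11c and Prdx4, other proteins of the endoplasmic reticulum, which had log2 differences of -0.33, -0.15 and -0.10 and were not called. Of the pancreatic acinar markers 18 of 19 were lower in C3 KO, as given above, and their part in these values was not tested. Among the surface proteins of the list, Cd27, a survival receptor, was 4.77 and 5.26, and Slamf7 was 5.69 and 6.13, both under 1.5-fold. Xbp1, the factor that enlarges the secretory apparatus, was 9.63 and 9.48.

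Genes that act around the members were counted beside the 7.24% of all genes called, or 4.7% at a mean level of at least 5. In lists this short, the few calls lie near that share and are no result about these genes. In the BAFF and APRIL system, 0 of 16 measured genes were called, and the median log2 difference was -0.02. The extremes were Tnfrsf12a, the receptor of TWEAK, which was 6.76 in WT and 6.41 in C3 KO, and Relb, a subunit of the alternative NF-kB pathway downstream of BAFF, which was 7.14 and 7.49. Sdc4, another syndecan, had a log2 difference of 0.30. In the transport of immunoglobulins across cells, 0 of 19 genes were called, with a median of 0.06. Fcamr, a receptor for IgA and IgM, was 6.23 and 6.78, the highest difference of that list at 0.55, and the vesicle genes Rab3d (8.73 and 8.57) and Ap1m2 (8.36 and 8.20) were the lowest.

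Of 22 genes for signals that raise Pigr, 1 was called higher and 1 lower, and the median was 0.02. Tlr4, the receptor of bacterial lipopolysaccharide, was 6.96 in WT and 7.58 in C3 KO, 1.54-fold higher. Il17a, a cytokine that induces Pigr in the gut, was 5.12 and 4.24, 1.84-fold lower and near the background, and was chosen after its value was seen. Tnf was 5.67 and 5.27, Il4ra was 7.41 and 7.25, and Rela, the NF-kB subunit, was 8.59 and 8.92, all under the limit.

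IgA class switch signals gave 0 calls among 22 genes and a median of 0.00. Aldh1a1, an enzyme of retinoic acid synthesis, was 8.77 in WT and 8.27 in C3 KO, and Cd40, the receptor for T cell help, was 5.61 and 5.26. Runx3, a transcription factor of the switch to IgA, was 5.52 and 5.90, and Tgfbr2, a receptor of TGF-beta, was 7.62 and 7.88. Homing genes of IgA plasma cells gave 0 calls among 13 and a median of 0.25. Vcam1, an adhesion molecule of vessels, was 6.40 and 6.95, whereas Ccr10, the receptor by which IgA plasma cells reach the colon, was 5.32 and 5.01, and Ccl25, a chemokine of the small intestine, was 6.56 and 6.47. Regulators of plasma cell fate gave 1 call among 22 and a median of 0.17. The call was Pax5, the B cell identity factor that Prdm1 represses (4.70 and 5.46). Bcl6, the germinal center repressor, was 6.78 and 6.65.

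**Figure D4:**
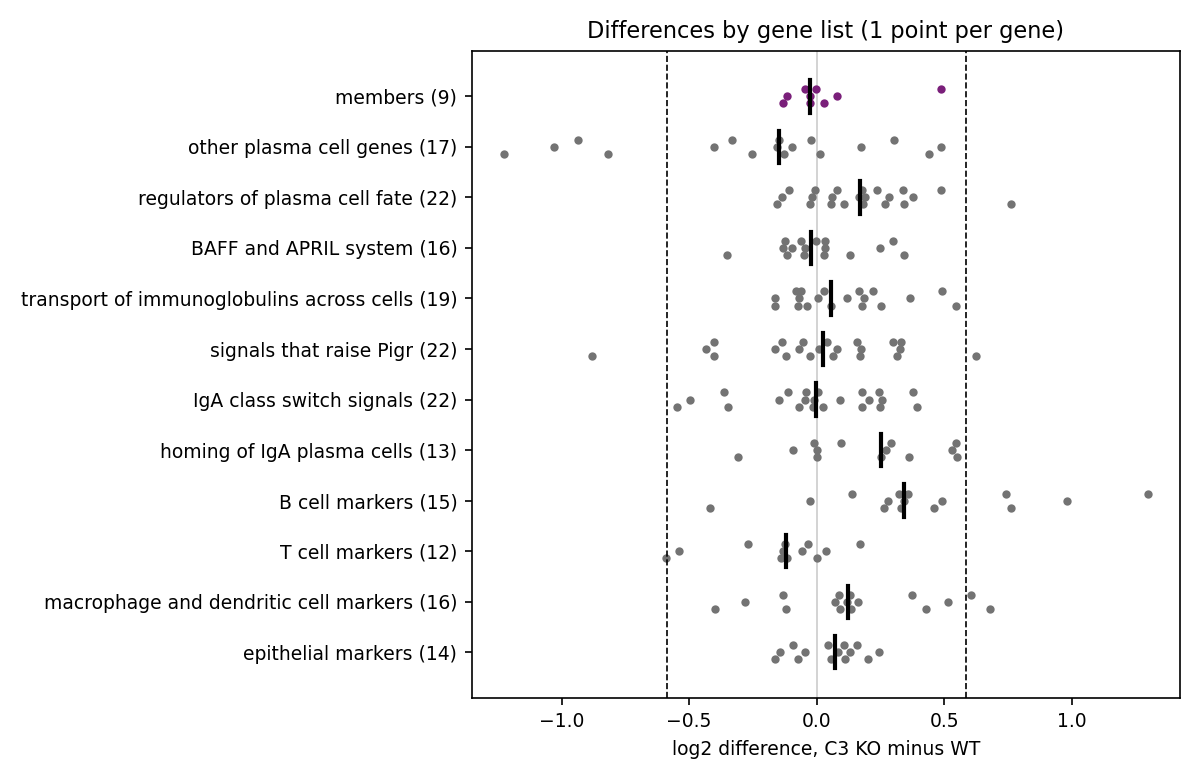
Log2 difference, C3 KO minus WT (horizontal axis), of each gene in the members and 11 other lists, with the number of measured genes in brackets, the median as a black bar and dashed lines at 1.5-fold. The members cluster at 0 apart from Pou2af1, other plasma cell genes reach -1.23, and B cell markers reach 1.30.

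Cells around the plasma cells were read from marker lists, beside 3.47% of all genes called higher and 3.77% called lower. Of 15 B cell markers, 4 were called higher and 0 lower, with a median of 0.34. Ms4a1 (CD20), which plasma cells lose, was 4.53 in WT and 5.83 in C3 KO, 2.46-fold higher, and Bank1, an adaptor of the B cell receptor, was 5.92 and 6.90, 1.97-fold higher. Pax5 and Cr2, the latter chosen after its value was seen, were the other 2. Below 0 were 2 markers, Cd72 at -0.03 and Blk, chosen after its value was seen, at -0.42. In WT, Cr2 (4.40), Ms4a1 (4.53) and Pax5 (4.70) were near the background median of 4.20, so their folds rest on values close to the background. Of 12 T cell markers, 1 was called lower (Cd2, at -0.59, chosen after its value was seen), with a median of -0.12. Cd3d and Cd4, at 0.17 and 0.04, were the 2 above 0. Of 16 macrophage and dendritic cell markers, 2 were called higher (Itgax and Cd209a), with a median of 0.12. In that list 4 were below 0, with Adgre1 the lowest at -0.40. Of 14 epithelial markers, among cells that carry Pigr, 0 were called, with a median of 0.07, and of 10 smooth muscle markers 0, with a median of 0.09.

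The promoters of the members shared few of the letters searched for. RefSeq gave 10 windows of 300 bases for 9 of the 10 listed genes, and both strands were searched in these and in all 32851 windows. The octamer ATTTGCAT, at which Pou2af1 acts, was in 0 of the 10 windows and in 1.74% of all. The E-box CAGGTG was in those of Pigr and Prdm1 and in 20.2% of all, GACGTG was in that of Pou2af1 and in 6.38% of all, and GGAANNGAA, an element of ETS and IRF factors, was in 0 of the 10 and in 8.24% of all. The interferon response element GAAANNGAA was in 8.56% of all windows, and in those of Tnfrsf17, on the reverse strand at position -100, and Tnfsf13b, at position -16 from the second of its starts. A match describes these letters only and marks no binding site.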

How the data were processed

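Total RNA of colon was labeled and hybridized to 2 Mouse Gene 2.0 ST arrays, 1 per genotype. The authors normalized the scanned signals by RMA at the gene level with Affymetrix Power Tools, and the deposited values are on the log2 scale. The deposited series table held the same values for all 41345 probe sets. The columns of the authors' own comparisons (fold changes, p-values and enrichments) were not used. Of 33793 main clusters, 31873 carried a symbol, and the log2 values of clusters sharing 1 of 657 symbols were averaged. No filter on low levels was applied.

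Differences are C3 KO minus WT, called at 1.5-fold, the fold limit given in the study's results, and no p-value was computed since a single array per genotype gives no spread between mice. The small number of arrays limits the precision. The median of 23 antigenomic probe sets was taken as background. Cluster positions were compared with RefSeq on GRCm38.p6, where 98.0% of 27427 clusters matched by symbol overlapped their gene. The members and gene lists were chosen with earlier results of these data known. The text names all members, every immunoglobulin constant gene, the neighbours of members, and for each other list the 2 highest and 2 lowest genes at a mean level of at least 5, except where it says a gene was chosen after its value was seen. One gene that this rule names is not reported here. Of the neighbours, those beside Pigr and Pou2af1 are given. The alternatives were centring by the median or by loess (fraction 0.3), the series table, the brightest cluster of a gene, minimum mean levels of 4 and 5, clusters of 1 locus and a 2-fold threshold. The calculation was tested on simulated data. The scripts ran in Python 3.11.15 (statsmodels 0.14.6 for loess, pandas 2.3.3 and numpy 2.4.6 for tables, matplotlib 3.10.9 for plots).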

Additional observations from a re-analysis of the deposited data

How the results depend on the processing

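The count of members called stayed at 0 under every alternative that was run, and Pou2af1 kept a log2 difference of 0.47 to 0.49. Pigr ranged from -0.04 to 0.03 and Tnfrsf17 from -0.05 to 0.01, and both changed sign under loess centring, as values near 0. Tnfsf13b ranged from -0.16 to -0.13, and at -0.16, under loess centring, it lay outside the limit of 0.15 used above. The median difference of all clusters was 0. With loess centring the call of Tlr4 and that of Cd2 were lost and 1 homing gene was called higher, and with the brightest cluster of each gene the call of Pax5 was lost. At 2-fold, the other plasma cell genes called lower were 2 (Derl3 and Fkbp11), the B cell markers called higher 1 (Ms4a1) and the hepatocyte markers called higher 4, and Tlr4, Il17a, Pax5, Cd2, Itgax and Cd209a were not called. With a mean level of at least 5, Il17a, Cd2 and Cr2 were not among the genes counted, and the B cell markers called higher were 3. Matching immunoglobulin constant genes by position, chosen after seeing the data, gave 3 higher where symbols gave 1. No paired analysis was possible because each group has 1 array, and no array could be left out. Exactly equal values in both arrays were found in 914 genes (2.96%), none of them a member.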
